A study of Mus musculus with 12 samples.

Results

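The mouse melanoma lines YUMM1.1 and B16 were compared as they stood after interferon-gamma (IFNG). The groups were taken from the sample labels and hold 6 of the 12 libraries of the study: 3 of YUMM1.1 cells and 3 of B16 cells, all grown in culture with 10 ng/ml IFNG for 48 h. The remaining 6 libraries, 3 of untreated YUMM1.1 and 3 of untreated B16, did not enter this test, and they are given as background levels and as a second comparison on separate libraries. YUMM1.1 is known as a line from a melanoma of mice whose engineered alleles include an activating Braf mutation and loss of Cdkn2a in melanocytes, and B16 as a pigmented line from a melanoma that arose in a mouse without engineered alleles. Each group is 1 line, so any difference is between these lines and not between classes of melanoma. Nothing in the labels says that a group's libraries are separate cultures, so p-values reflect the spread among these libraries alone, which may be technical.

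IFNG binds a receptor made of 2 chains, whose bound kinases JAK1 and JAK2 pass the signal on to the nucleus, where genes that carry a short activation site are switched on. Among the early targets is the transcription factor IRF1, which acts on further genes through a second kind of site, and the later output includes antigen presentation by MHC class I and II, GTPases that act against microbes inside the cell, chemokines and the checkpoint ligand PD-L1. SOCS1 and phosphatases shut the pathway down. In melanoma, cells can either keep the pigment cell programme driven by the factor MITF or be dedifferentiated, with low MITF and high NGFR or AXL.

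Values are read counts per gene, given below as CPM, which are counts scaled to a library total of 1000000. Differences are log2 ratios of treated YUMM1.1 over treated B16 from edgeR with TMM scaling, with their SE, and genes with a p below 0.05 after Benjamini-Hochberg adjustment over all tested genes are termed called. The YUMM1.1 libraries held 21574488 to 24747859 counts and the B16 libraries 5031085 to 6639618, so depth goes with the line and cannot be told apart from it. Mitochondrial transcripts made up 0.520% to 0.734% of the YUMM1.1 counts and 1.04% to 1.95% of the B16 counts, with the highest share in B16 IFNG 3. Counts of pairs of libraries were compared by chi-square over its degrees of freedom, where 1 is sampling noise. B16 IFNG 1 and 2 had a value of 1.28 against each other, and 18.5 and 18.2 against B16 IFNG 3. With the counts of B16 IFNG 1 and 2 summed as 1 library, 4351 genes were called higher and 4188 lower. The treated YUMM1.1 libraries stood at 14.7 to 33.6 to each other. Among untreated libraries, pairs of B16 stood at 1.59 to 3.42 and pairs of YUMM1.1 at 15.2 to 45.4. The untreated and interaction p-values rest in part on this small spread of untreated B16, which may be technical. The value also grows with depth, so it does not rank the spread of lines of unlike depth. B16 IFNG 2 stood apart for a few collagen and smooth muscle genes and YUMM1.1 IFNG 3 for MHC class II and some cytokine genes, and where leaving them out moved a called value by over 1.5 times, or changed a call or direction, the value without them is given beside it. On the reference annotation some genes named below share exon bases with another coding gene, Braf with Ndufb2, Pmel with Cdk2, Ciita with Dexi, H2-DMa with Brd2, Cxcl10 with Art3, C2 with Zbtb12 and Igtp with Irgm2 among them. The strand setting of the counts is not given in the sources used here, so reads of such pairs cannot be told apart. In bulk RNA, fewer cells that express a gene and less RNA per cell cannot be told apart.

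Most of the measured transcriptome differed between the lines. Of 12872 tested genes, 4483 (34.8%) were called higher and 4215 (32.7%) lower in treated YUMM1.1, and the median log2 of all tested genes was 0.026. These shares are the background for every list below: a list with about 1 in 3 members higher and as many lower is like the rest of the genes. A difference of at least 2-fold was called higher for 21.6% and lower for 18.5% of them. The 3 and 3 libraries did not overlap for 73.1% of the tested genes. All 3 libraries of both lines were above the level of the count filter for 10562 genes, of which 63.7% were called. A further 1233 genes had all 3 libraries above that level in YUMM1.1 alone and 949 in B16 alone. These are said below to pass the filter through 1 line alone, and the filter largely fixed their direction. The gene lists were called in very different shares, from the pigmentation genes, all 16 lower, to the matrix proteases and their inhibitors, with all 13 tested members higher.

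**Figure D1:**
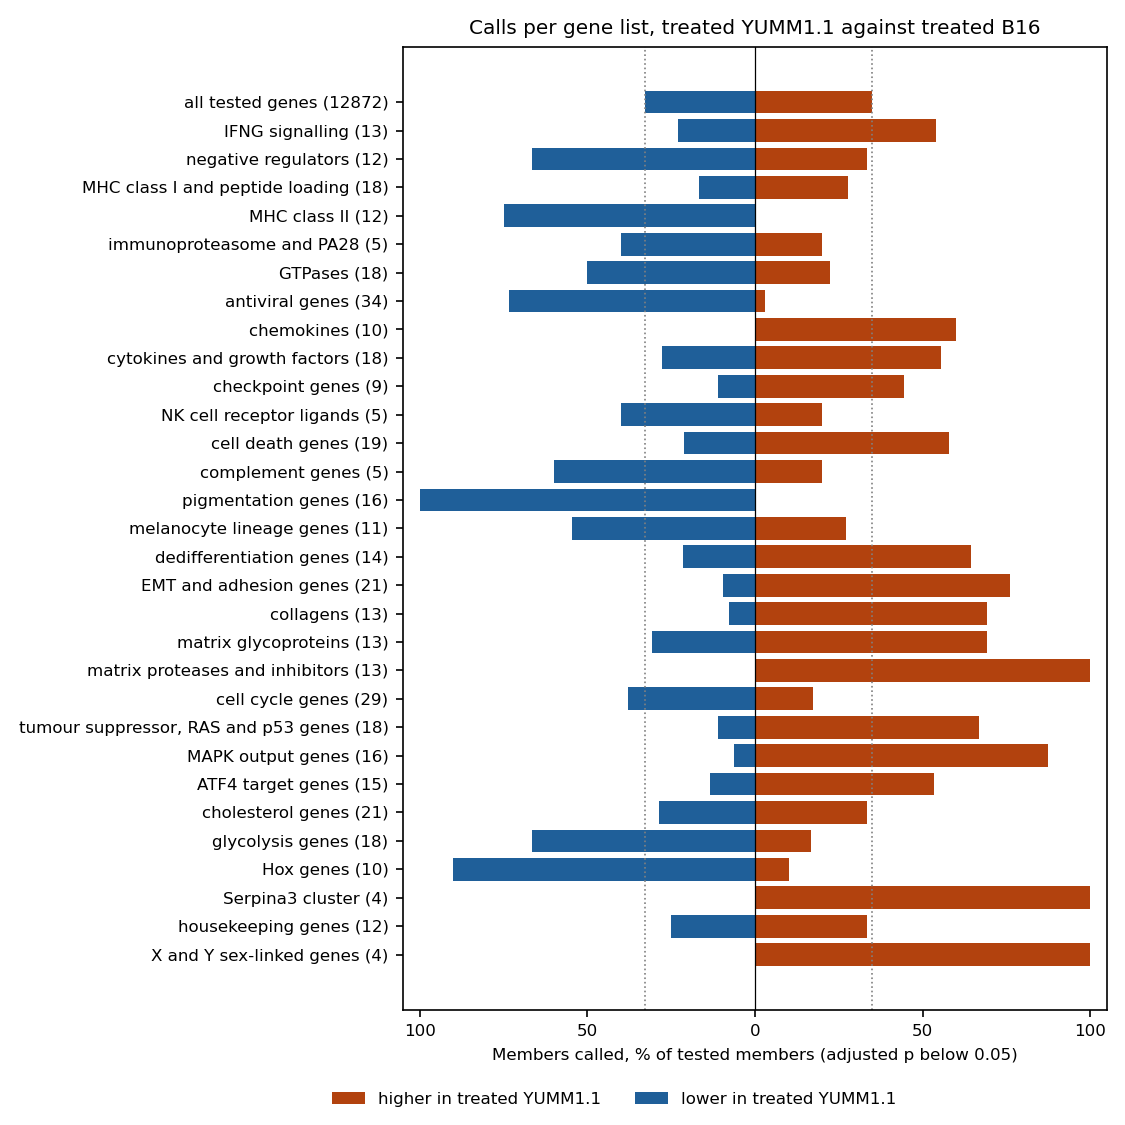
For each gene list, bars give the percentage of its tested members called higher (right) and called lower (left) in treated YUMM1.1 against treated B16. The number of tested members is in brackets, and the dotted lines mark the shares among all tested genes, 34.8% and 32.7%.

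The labels were first set against genes that mark the lines. The Y chromosome genes Eif2s3y, Ddx3y, Kdm5d and Uty were read in every treated YUMM1.1 library and had no read in any B16 library, treated or untreated. Ddx3y had 34.3, 40.97 and 37.6 CPM in treated YUMM1.1, at least 222-fold higher than a floor of 3 reads over the treated B16 libraries allows. Cdkn2a, the locus of the cell cycle inhibitor p16 and of p19ARF, had 5.75, 6.42 and 7.96 CPM in treated YUMM1.1 and no read in B16, a difference of at least 39.6-fold. Its neighbour Cdkn2b, which encodes p15, had 127, 109 and 139 CPM in treated YUMM1.1 and likewise no read in treated B16. The counts are per gene and do not show which exons were read, so they do not bear on a deletion of some exons in YUMM1.1. Braf had 20.1, 21.1 and 22.4 CPM in treated YUMM1.1 and 48.9, 59.6 and 69.3 CPM in treated B16 (log2 -1.39, SE 0.15, adjusted p = 1.61e-05), with no overlap between the lines.

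Next, markers of non-melanoma cell types were summed, because both groups are labelled as melanoma cells. Of 13 leukocyte markers the summed level was 4.32 to 5.36 CPM in treated YUMM1.1 and 4.82 to 7.35 CPM in treated B16. Cd3e, Cd4, Cd8a, Nkg7 and Itgam had no read in any of the 6 libraries, and the only 2 members tested were Lyz2 and Cd68. Ptprc, which encodes CD45, had no read in YUMM1.1 and 1 read among the B16 libraries. The 10 keratinocyte and endothelial markers summed to 4.13 to 4.81 CPM in YUMM1.1, nearly all of it Krt10, and to 1.05 to 3.51 CPM in B16. The 9 fibroblast markers summed to 910.4 to 1179 CPM in YUMM1.1 and to 6.01, 58.8 and 8.74 CPM in B16. In YUMM1.1 this sum was nearly all Col3a1, at 887, 1165 and 1054 CPM, while Thy1 had no read and Dcn, Lum and Fap had too few reads to be tested. In B16 IFNG 2 the sum came mainly from Col1a1 at 24.4, Acta2 at 15.9, Col3a1 at 8.15 and Pdgfrb at 5.17 CPM. The part of these transcripts in the results below was not tested beyond leaving that library out.

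Pigmentation genes separated the lines most widely. All 16 members of the list were tested and all 16 were called lower in treated YUMM1.1, with a median log2 of -10.99 against 0.026 over all tested genes. Their summed level was 479 to 706 CPM in YUMM1.1 and 48919 to 52496 CPM in B16. The same 16 genes were called lower in untreated YUMM1.1 against untreated B16, where 36.2% of all tested genes were called higher and 35.5% lower, and 9 of them passed the count filter through B16 alone. Tyrp1 and Dct, which encode melanin-making enzymes of the tyrosinase family, are shown with their promoters because they had 2 of the 3 most negative log2 values of the whole comparison. The promoters run from 250 bases before to 50 bases after the start of the gene, from RefSeq on GRCm38.p6, 5′ to 3′ on the strand of the gene. Capitals mark CATGTG or its reverse complement CACATG, an E-box that MITF is known to bind. Tyrp1 lies at chr4:80833963-80834262 on the plus strand and Dct at chr14:118052197-118052496 on the minus strand.
Tyrp1: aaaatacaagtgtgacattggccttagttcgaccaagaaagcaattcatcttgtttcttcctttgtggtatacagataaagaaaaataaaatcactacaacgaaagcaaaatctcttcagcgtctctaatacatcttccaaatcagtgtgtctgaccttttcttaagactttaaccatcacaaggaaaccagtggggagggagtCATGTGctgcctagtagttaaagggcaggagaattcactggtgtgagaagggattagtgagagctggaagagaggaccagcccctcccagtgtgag
Dct: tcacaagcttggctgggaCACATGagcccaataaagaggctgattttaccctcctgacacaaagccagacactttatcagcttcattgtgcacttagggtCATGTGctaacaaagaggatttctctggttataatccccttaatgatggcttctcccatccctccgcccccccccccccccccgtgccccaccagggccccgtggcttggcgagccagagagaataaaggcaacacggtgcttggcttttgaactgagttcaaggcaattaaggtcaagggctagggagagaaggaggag
CATGTG was found on either strand in 7 of the 12 RefSeq promoters matched to 10 of the pigmentation genes, and in 14.2% of all 32851 mouse promoters in the table. The other MITF E-box, CACGTG, which reads the same on both strands, was in 3 of the 12 and in 7.15% of all. No 2 matches overlap in the sequences shown, and a match describes these letters and does not show that a factor binds there.

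The reads of these genes were as follows. Tyrp1 had no read in any treated YUMM1.1 library and 10409, 10132 and 12336 CPM in treated B16. That makes it at least 257292-fold lower in YUMM1.1, against a floor of 3 reads over the group. Dct had 0.0464, 0.0808 and 0.0426 CPM in treated YUMM1.1 and 9105, 8953 and 8274 CPM in treated B16. Tyr, the rate-limiting enzyme of melanin synthesis, had no read in YUMM1.1 and 276, 261 and 373 CPM in B16. These 3 enzymes of melanin synthesis were far below B16 in every YUMM1.1 library. Pmel forms the fibrils on which melanin is laid down, and it had 2.78, 2.83 and 2.81 CPM in treated YUMM1.1 and 11997, 11699.9 and 9051 CPM in treated B16 (log2 -11.83, SE 0.21, adjusted p = 3.12e-10). Mlana, a melanosome protein and T cell antigen, had 0.185, 0.0404 and 0.170 CPM in treated YUMM1.1 and 2191, 2133 and 2011 CPM in treated B16 (log2 -13.81, SE 0.25). Every B16 library was far above every YUMM1.1 library for each of these genes. The transporter gene Slc45a2 had 1 read among the YUMM1.1 libraries and 1577, 1537 and 1542 CPM in B16. The channel gene Trpm1 had none in YUMM1.1 and 1441, 1406 and 1345 CPM in B16. Gpr143, the gene of a melanosome receptor, had none in YUMM1.1 and 203, 201 and 196 CPM in B16. The smallest difference in the list was that of the melanosome motor adaptor Mlph, with 164 ± 57.3 CPM in treated YUMM1.1 and 1144 ± 88.7 CPM in treated B16 (SD, n = 3 each, log2 -2.72, SE 0.24). Gpnmb, a melanosome glycoprotein that other cells also make, had 248, 218 and 124 CPM in treated YUMM1.1 and 9773, 9436 and 8027 CPM in treated B16 (log2 -5.44, SE 0.26).

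The transcription factors above this programme did not move together. Mitf had 1.85, 1.899 and 2.94 CPM in treated YUMM1.1 and 600.1, 608 and 877 CPM in treated B16 (log2 -8.18, SE 0.26, adjusted p = 3.31e-09), and its untreated levels were 1.66 CPM in untreated YUMM1.1 and 536 CPM in untreated B16. Sox10, the neural crest factor that switches on Mitf, had 735, 770.01 and 749 CPM in treated YUMM1.1 and 743, 719 and 431 CPM in treated B16, so that the groups overlapped, with the lowest value in B16 IFNG 3. It was not called (log2 0.34, adjusted p = 0.134), with a 95% interval of -0.08 to 0.77 on the log2 scale. Pax3, another activator of Mitf, averaged 44.3 ± 9.46 CPM in treated YUMM1.1 and 167 ± 2.95 CPM in treated B16 (log2 -1.83, SE 0.16). Of the melanocyte lineage list, 11 of 13 genes were tested, with 3 higher and 6 lower (median log2 -1.06). The receptor genes Mc1r and Kit were among the lower ones, with 1.76, 1.54 and 1.45 CPM in treated YUMM1.1 and 289.8, 285 and 287 CPM in treated B16 for Mc1r. Kit had no read in YUMM1.1 and 16.5, 16.7 and 12.2 CPM in B16. Met, the receptor of hepatocyte growth factor, was lower as well, with 31.6, 20.002 and 18.3 CPM in treated YUMM1.1 and 926, 909 and 1162 CPM in treated B16 (log2 -5.33, SE 0.23). Erbb3, a neuregulin receptor of the neural crest, was higher, with 702, 795 and 604 CPM in treated YUMM1.1 and 55.3, 58.04 and 58.6 CPM in treated B16 (log2 3.70, SE 0.14, adjusted p = 9.04e-09).

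Dedifferentiation genes were higher in treated YUMM1.1 more often than lower. Of 14 tested, 9 were called higher and 3 lower, with a median log2 of 1.91, and 5 passed the count filter through 1 line alone. Ngfr, which encodes the neural crest marker CD271, had 2968, 3434 and 3026 CPM in YUMM1.1 and 0, 0.199 and 0.301 CPM in B16, a total of 3 B16 reads. Its ratio from the summed counts was 18558-fold, with a 95% counting interval of 6350 to 89988. Axl, a receptor kinase of drug-tolerant melanoma cells, had 1258, 1161 and 905 CPM in treated YUMM1.1 and 91.9, 103 and 76.5 CPM in treated B16 (log2 3.71, SE 0.17, adjusted p = 3.61e-08). In untreated B16 it had only 12.3, 8.56 and 13.6 CPM, so the untreated difference was wider, at log2 6.98, and the change of the difference was called. The interaction, which is the treated minus the untreated line difference fitted over all 12 libraries, was log2 -3.26 for Axl (adjusted p = 1.12e-07). Nes, the intermediate filament of neural progenitors, went the other way. It had 1138, 1375 and 906 CPM in treated YUMM1.1 and 43.6, 47.1 and 39.5 CPM in treated B16 and a mean of 317 CPM in untreated B16, and its difference was wider in treated cells (log2 4.81) than in untreated cells (log2 1.91, interaction adjusted p = 3.41e-07). Of the YAP pathway, Tead1 (log2 1.86, SE 0.12), Wwtr1 (log2 1.96, SE 0.13) and the target Ccn1 (log2 3.84, SE 0.16) were higher. Ccn2, another target on the list, was not called (log2 0.61, adjusted p = 0.141), though it was called higher with no count filter. Ankrd1, a further target on the list, had no read in treated YUMM1.1 and was not tested. Yap1 was lower, with 154, 145 and 158 CPM in treated YUMM1.1 and 239.5, 238 and 248 CPM in treated B16 (log2 -0.57, SE 0.11). Sox9 was called lower at an adjusted p of 0.0435, with a range of 0.00301 to 0.148 over the alternatives, and lost its call when any library but YUMM1.1 IFNG 3 was left out. Foxd3, a neural crest factor that was not on the list, had 117, 105 and 118 CPM in YUMM1.1 and no read in treated B16. Tfap2b, another neural crest factor, had 108, 126 and 136 CPM in YUMM1.1 and likewise no read in treated B16.

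**Figure D2:**
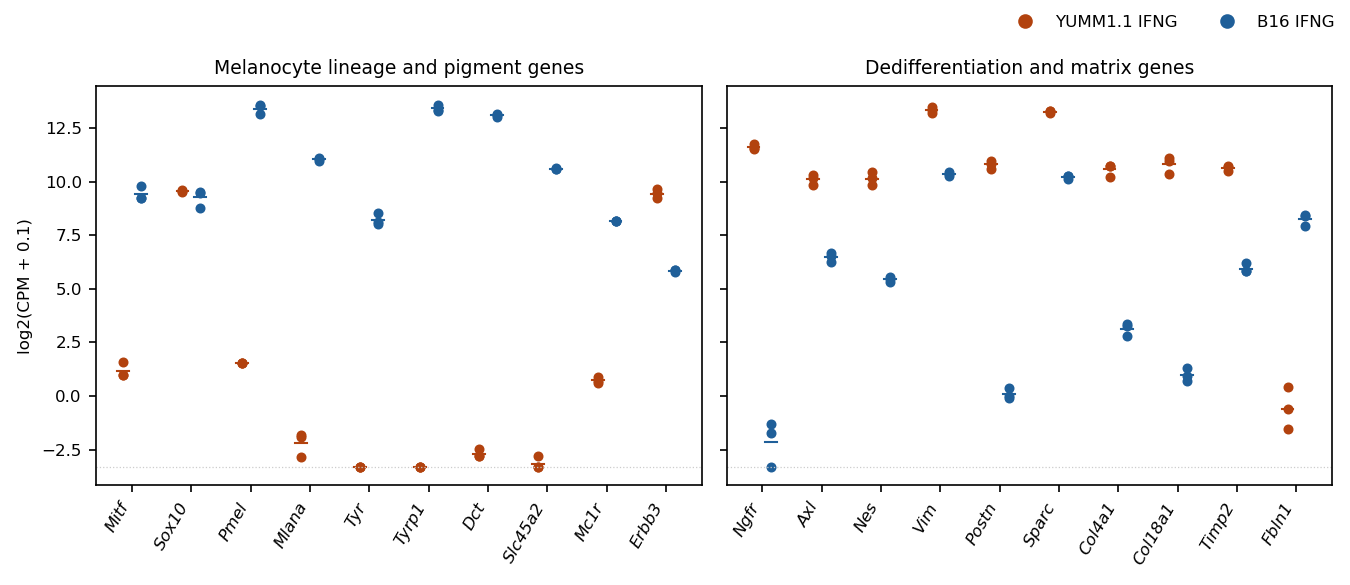
Each point is 1 treated library, YUMM1.1 left and B16 right for each gene, on a log2 scale of CPM plus 0.1, and short lines are means of the log values. The dotted line marks 0 reads. Tyr and Tyrp1 lie on it in all YUMM1.1 libraries, Sox10 points of the lines overlap or lie close, and the matrix genes other than Fbln1 are higher in YUMM1.1.

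Mesenchymal, adhesion and matrix genes were mostly higher in treated YUMM1.1. Of 21 tested EMT and adhesion genes, 16 were called higher and 2 lower (median log2 2.57), and 6 passed the filter through 1 line alone. The intermediate filament gene Vim had 10323, 9416 and 11281 CPM in treated YUMM1.1 and 1309.7, 1401 and 1219 CPM in treated B16 (log2 3.07, SE 0.12, adjusted p = 1.30e-08), and the integrin subunit Itgb1 had 1660.3, 1922 and 1755 CPM in treated YUMM1.1 and 430.3, 423 and 535 CPM in treated B16 (log2 2.04, SE 0.13). The factors Snai2, Twist1, Zeb1 and Zeb2, which repress epithelial genes, were all higher, with log2 3.59, 6.61, 4.96 and 1.24. Snai1 of the same list was not called and Twist2 was not tested. Fn1 and Cd44 were not called either (Cd44 log2 0.04, adjusted p = 0.816). The Twist1 value was 8.36 without B16 IFNG 2 and 6.02 without B16 IFNG 1. Cdh2, which encodes N-cadherin, averaged 236 ± 31.4 CPM in treated YUMM1.1 and 42.4 ± 0.319 CPM in treated B16 (log2 2.57, SE 0.14), and Cdh1, E-cadherin, was below 2 CPM in every library. S100a4 and S100a6, calcium-binding proteins of motile cells, were higher by log2 10.20 and 7.65. The S100a6 value without B16 IFNG 2 was 9.47, since that library had 18.5 CPM against 1.503 and 2.41 in the other treated B16 libraries.

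Collagens differed by type. Of 13 tested, 9 were called higher and 1 lower, with a median log2 of 7.25, and 7 of them passed the filter through 1 line alone. The basement membrane collagen gene Col4a1 had 1708, 1691 and 1205 CPM in treated YUMM1.1 and 9.52, 10.1 and 6.93 CPM in treated B16. Col18a1, whose product holds the precursor of endostatin, had 2180.1, 2022 and 1309.9 CPM in treated YUMM1.1 and 1.84, 2.39 and 1.51 CPM in treated B16. No B16 library came near any YUMM1.1 library for either gene. Col4a1 shares exon bases with Col4a2, which was also higher (log2 7.25). Col3a1 had 887, 1165 and 1054 CPM in treated YUMM1.1 and 1.002, 8.15 and 0.452 CPM in treated B16 (log2 8.56, or 10.58 without B16 IFNG 2). The chains of collagen I did not follow: Col1a2 had 0.324, 0 and 0.0851 CPM in treated YUMM1.1 and 2.17, 25.8 and 2.86 CPM in treated B16 (log2 -6.09, adjusted p = 8.61e-04). Its log2 was -4.11 without B16 IFNG 2, -7.52 without YUMM1.1 IFNG 1 and within this range without YUMM1.1 IFNG 2. Col1a1 had 4.26, 3.35 and 3.57 CPM in treated YUMM1.1 and 1.84, 24.4 and 3.31 CPM in treated B16 and was not called (log2 -1.26, adjusted p = 0.137), with the lowest and the highest value both in B16. The direction rested on B16 IFNG 2: without it the log2 was 0.61 (adjusted p = 0.151), while without B16 IFNG 1 the gene was called lower (log2 -1.77). Of 13 tested matrix glycoproteins, 9 were higher and 4 lower, and 5 passed the filter through 1 line alone. Sparc, a collagen-binding protein, had 9402, 10069.6 and 10042 CPM in treated YUMM1.1 and 1242, 1224 and 1129 CPM in treated B16 (log2 3.13, SE 0.11, adjusted p = 5.70e-09), and Postn, periostin, had 1559, 2024 and 1836 CPM in treated YUMM1.1 and 0.835, 1.19 and 0.904 CPM in treated B16 (log2 10.95, SE 0.22). The exceptions were Fbln1, with 0.556, 0.242 and 1.23 CPM in treated YUMM1.1 and 339, 348 and 246 CPM in treated B16 (log2 -8.74, SE 0.38, or -9.53 without YUMM1.1 IFNG 3), and Fbn1, Thbs2 and Vcan, all below 6 CPM in B16.

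All 13 tested matrix proteases and inhibitors were called higher (median log2 4.20, or 4.02 with the member that had no B16 read set at its floor of 3 reads). Of these, 4 passed the filter through YUMM1.1 alone. Timp2, an inhibitor of metalloproteases that also takes part in activating MMP2, had 1465, 1714 and 1630.1 CPM in treated YUMM1.1 and 56.3, 73.9 and 56.2 CPM in treated B16 (log2 4.78, SE 0.16, adjusted p = 4.61e-09). The membrane protease Mmp14 had 583, 614 and 574 CPM in treated YUMM1.1 and 203, 191 and 143 CPM in treated B16 (log2 1.81, SE 0.15), and the plasminogen activator Plat averaged 315 ± 29.9 CPM in treated YUMM1.1 and 4.52 ± 1.52 CPM in treated B16 (log2 6.24, SE 0.21). The gap was often wider in treated than in untreated cells: the interaction was called positive for 8 of the 13 members and negative for none, against 9.95% of all genes tested for it. Adamts1, a protease of proteoglycans, averaged 379.6 CPM in treated YUMM1.1 and 58.4 CPM in treated B16, and 376 CPM in untreated YUMM1.1 and 253 CPM in untreated B16. Its log2 difference was 2.80 in treated and 0.77 in untreated cells. The untreated means of Timp2 were 1840.5 CPM in untreated YUMM1.1 and 324 CPM in untreated B16, so that its B16 level stood lower in treated cells.

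Genes of IFNG signalling were called in both directions, as were genes at large. Of 13 tested signalling genes, 7 were called higher and 3 lower (median log2 0.52), against 34.8% and 32.7% of all tested genes. Ifngr1, the chain that binds IFNG, had 59.005, 52.8 and 47.02 CPM in treated YUMM1.1 and 10.2, 8.35 and 11.9 CPM in treated B16 (log2 2.47, SE 0.17, adjusted p = 5.45e-07). Ifngr2, the second chain, which brings in JAK2, was the reverse, with 25.6, 24.97 and 30.3 CPM in treated YUMM1.1 and 54.1, 54.3 and 58.3 CPM in treated B16 (log2 -0.95, SE 0.13, adjusted p = 9.47e-05). The lines did not overlap for either chain, and both differences were called in the same direction in untreated cells (log2 2.19 and -1.55). Jak1 had 201, 236 and 193 CPM in treated YUMM1.1 and 136, 133 and 149.9 CPM in treated B16 (log2 0.68, SE 0.12), while Jak2 had 66.6, 75.7 and 80.2 CPM in treated YUMM1.1 and 75.8, 71.8 and 88.3 CPM in treated B16 and was not called, with a 95% interval of -0.28 to 0.30. Irf1, the early target and factor for further genes, was lower, with 416, 437 and 476 CPM in treated YUMM1.1 and 839.97, 849.5 and 763 CPM in treated B16 (log2 -0.79, SE 0.11, adjusted p = 1.41e-04), and its untreated levels were 28.2 CPM in untreated YUMM1.1 and 28.9 CPM in untreated B16 and were not called (adjusted p = 0.421). Stat3, which answers mainly to the interleukin 6 family, was lower in treated YUMM1.1 (log2 -0.76, SE 0.12) and higher in untreated YUMM1.1 (log2 0.99). Irf8 had 2.18, 1.58 and 6.43 CPM in treated YUMM1.1 and 0.167, 0.398 and 0.151 CPM in treated B16 (log2 3.94, adjusted p = 0.00227), with the highest value in YUMM1.1 IFNG 3, and without that library its log2 was 3.06. Irf1, Jak1, Stat3 and Irf9 share exon bases with other coding genes, so some of their reads may belong to those.

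All 12 negative regulators were tested and all were called, 4 higher and 8 lower (median log2 -0.75). Socs1, the feedback inhibitor of JAK kinases, had 105, 82.96 and 109 CPM in treated YUMM1.1 and 55.1, 53.9 and 31.5 CPM in treated B16 (log2 1.17, SE 0.21, adjusted p = 6.69e-04), and its untreated levels were 36.4 CPM in untreated YUMM1.1 and 1.47 CPM in untreated B16. The difference was wider in untreated cells, at log2 4.74 (interaction adjusted p = 6.56e-06). Ptpn1 and Ptpn2, phosphatases of JAK kinases, were higher by log2 0.43 and 0.54. Socs3 was lower, with 43.8, 41.7 and 29.3 CPM in treated YUMM1.1 and 71.99, 66.4 and 50.8 CPM in treated B16 (log2 -0.63, adjusted p = 0.0124), and Usp18, which damps the type I interferon receptor, averaged 18.1 ± 11.1 CPM in treated YUMM1.1 and 48.9 ± 3.46 CPM in treated B16 (log2 -1.33, adjusted p = 0.00570, or log2 -1.99 without YUMM1.1 IFNG 3). The inhibitory receptor gene Sirpa, whose product recruits SHP phosphatases, had the widest gap of the list, with 0.0464, 0.0808 and 0.128 CPM in treated YUMM1.1 and 335, 335 and 317 CPM in treated B16 (log2 -11.67, SE 0.22).

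MHC class II genes were far lower in treated YUMM1.1. Of 12 tested members, 9 were called lower in treated YUMM1.1 and none higher, with a median log2 of -5.71 against 0.026 over all tested genes, and 3 passed the filter through B16 alone. Ciita, the factor that switches on the class II genes, had 2.78, 3.03 and 9.83 CPM in treated YUMM1.1 and 339, 340.1 and 269 CPM in treated B16 (log2 -5.82, SE 0.44, adjusted p = 1.31e-06). Cd74, the invariant chain, had 3.66, 3.19 and 17.1 CPM in treated YUMM1.1 and 1085, 1088 and 812 CPM in treated B16 (log2 -6.86, SE 0.61, adjusted p = 4.42e-06). The chains of the antigen-presenting molecules were lower with them. H2-Aa had 0.324, 0.889 and 2.09 CPM in treated YUMM1.1 and 392, 372 and 321 CPM in treated B16. H2-Ab1 had 1.99, 2.79 and 10.7 CPM in treated YUMM1.1 and 294, 288 and 224 CPM in treated B16. H2-Eb1 had 0.742, 1.25 and 4.13 CPM in treated YUMM1.1 and 345, 335 and 270.5 CPM in treated B16. Every B16 library was above every YUMM1.1 library for these 5 genes, and YUMM1.1 IFNG 3 was the highest YUMM1.1 library for each. Without YUMM1.1 IFNG 3 the log2 values were -6.68 for Ciita, -8.11 for Cd74, -9.09 for H2-Aa, -6.73 for H2-Ab1 and -8.21 for H2-Eb1, against -5.82, -6.86, -8.24, -5.60 and -7.17 with it. H2-DMa, part of the peptide exchange factor, had 5.24, 5.78 and 11.96 CPM in treated YUMM1.1 and 172, 188 and 148 CPM in treated B16 (log2 -4.37, SE 0.30, adjusted p = 6.14e-07, or log2 -4.86 without YUMM1.1 IFNG 3). In untreated cells it was the other way round, with 2.73, 3.19 and 2.83 CPM in untreated YUMM1.1 and 0.761, 0.398 and 1.17 CPM in untreated B16 (log2 2.21, adjusted p = 2.27e-04). The untreated levels of Ciita, Cd74, H2-Aa, H2-Ab1 and H2-Eb1 were at most 3.497 CPM in any untreated library. Of 5 members tested in untreated cells, 1 was called higher and 2 lower in YUMM1.1, against 36.2% and 35.5% of all tested genes. Cd74 was called lower there (log2 -6.03, adjusted p = 1.43e-05), with 1 read in untreated YUMM1.1 and 28 in untreated B16. The interaction was called negative for 2 of 12 tested members, against 8.51% of all genes. It was not called for Ciita, Cd74 or H2-Aa. Rfx5, Rfxank and Rfxap, the constant promoter factors of class II genes, were not called, with log2 -0.35, 0.31 and -0.36 (adjusted p = 0.0797, 0.147 and 0.109). Rfx5 was called lower with library totals in place of TMM factors and without B16 IFNG 3 (log2 -0.46). Rfxap was called lower with library totals, without B16 IFNG 3 (log2 -0.49) and without YUMM1.1 IFNG 3 (log2 -0.51).

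Most MHC class I genes were not called between the treated lines. Of 18 tested genes of class I and peptide loading, 5 were called higher and 3 lower (median log2 0.14) and 10 were not called. H2-K1, a classical class I heavy chain, had 1866, 1730.1 and 2968 CPM in treated YUMM1.1 and 1942, 1960.2 and 1369 CPM in treated B16. H2-D1, another of them, had 2387, 2391 and 2941 CPM in treated YUMM1.1 and 2713, 2775 and 1942 CPM in treated B16, and the groups overlapped for both. Neither was called, and the 95% intervals of the log2 difference were -0.08 to 0.90 and -0.21 to 0.50. In untreated cells both were called lower in YUMM1.1, at log2 -1.47 and -1.85, with 14.1 CPM in untreated YUMM1.1 and 44.2 CPM in untreated B16 for H2-K1. The interaction was called for both (adjusted p = 2.49e-04 and 4.29e-05). B2m, the light chain of class I, had 4391, 4367 and 4876 CPM in treated YUMM1.1 and 3374, 3129.5 and 4823 CPM in treated B16 and was not called (log2 0.36, adjusted p = 0.0607, 9.29e-04 to 0.232 over the alternatives), and it was called higher without B16 IFNG 3 (log2 0.56). The peptide transporter gene Tap1 had 522, 505 and 605 CPM in treated YUMM1.1 and 593, 581 and 435 CPM in treated B16, with a 95% interval of -0.22 to 0.44. Nlrc5, the factor that drives class I genes, was lower, with 195, 239 and 201 CPM in treated YUMM1.1 and 400.03, 399 and 326 CPM in treated B16 (log2 -0.73, SE 0.14, adjusted p = 8.16e-04). Its untreated difference was wider (log2 -3.61, interaction adjusted p = 4.52e-04), at means of 0.168 CPM in untreated YUMM1.1 and 2.61 CPM in untreated B16. The largest difference of the list among genes read in both lines was that of H2-Q4, a non-classical class I gene, with 578, 560.5 and 742 CPM in treated YUMM1.1 and 129, 132 and 95.5 CPM in treated B16 (log2 2.49, SE 0.17, adjusted p = 7.28e-07). In untreated cells it was lower in YUMM1.1, with 0.447, 0.679 and 0.720 CPM in untreated YUMM1.1 and 9.25, 10.6 and 6.61 CPM in untreated B16 (log2 -3.67). H2-Q7 averaged 5.17 ± 2.95 CPM in treated YUMM1.1 and had no read in B16. Genes of the H2 family are near copies of each other, and the sharing of reads between members was not tested.

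**Figure D3:**
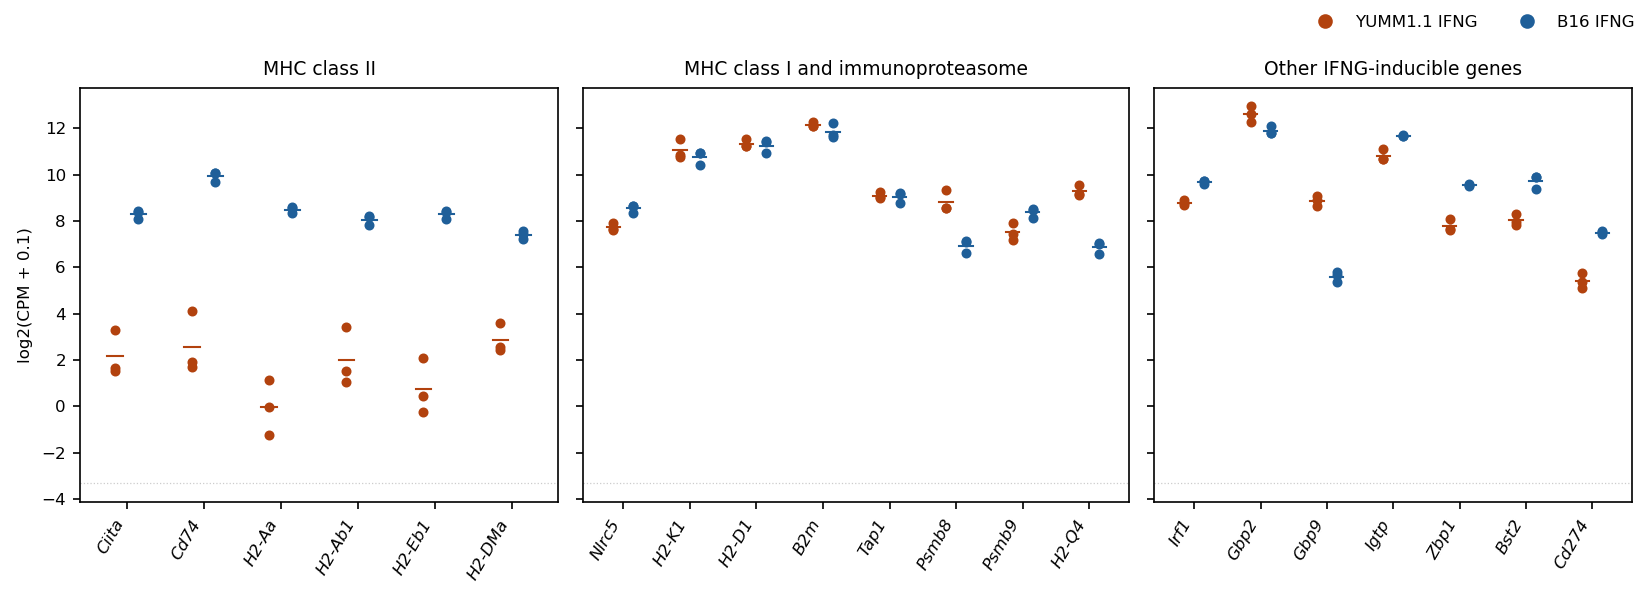
Each point is 1 treated library, YUMM1.1 left and B16 right for each gene, on a log2 scale of CPM plus 0.1, with short lines for the means of the log values and a dotted line at 0 reads. The MHC class II genes are lower in all YUMM1.1 libraries, the class I genes H2-K1, H2-D1, B2m and Tap1 overlap or lie close, and Psmb8, H2-Q4 and Gbp9 are higher in YUMM1.1.

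The immunoproteasome subunits that IFNG induces differed in opposite directions. Of 5 genes of the immunoproteasome and its activator, 1 was called higher and 2 lower (median log2 -0.34). Psmb8 had 376, 382 and 638 CPM in treated YUMM1.1 and 136, 141 and 97.1 CPM in treated B16 (log2 2.00, SE 0.23, adjusted p = 3.20e-05). Psmb9 had 172, 145 and 243 CPM in treated YUMM1.1 and 351, 369 and 283 CPM in treated B16 (log2 -0.75, SE 0.19, adjusted p = 0.00597), with no overlap of the lines for either. Psmb10, the third subunit, had 455, 412 and 539 CPM in treated YUMM1.1 and 684, 722 and 495 CPM in treated B16 and was not called (log2 -0.34, adjusted p = 0.0926), though it was called lower with library totals, without B16 IFNG 3 (log2 -0.50) and without YUMM1.1 IFNG 3 (log2 -0.47). In untreated cells Psmb8 and Psmb9 were at most 0.669 CPM in every library. Psme1, a subunit of the proteasome activator PA28, was lower (log2 -0.56, adjusted p = 0.00338) and its partner Psme2 was not called (log2 0.17, adjusted p = 0.186). Psmb9 shares exon bases with Tap1 on the reference, and reads there cannot be assigned to 1 of them.

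The guanylate-binding proteins and immunity-related GTPases were read in both treated lines, and which line was higher differed from gene to gene. All 18 were tested, and 4 were called higher and 9 lower (median log2 -0.44). Gbp2 and Igtp are shown with their promoters because both were read in every treated library and differed in opposite directions. Capitals mark GAAA, any 2 bases and GAAA again, or the reverse complement (TTTC, any 2 bases and TTTC), the core of the interferon-stimulated response element that IRF factors bind, and TTCNNNGAA, the interferon-gamma activation site, which reads the same on both strands. The sequences are RefSeq promoters on GRCm38.p6 as above, Gbp2 at chr3:142620413-142620712 and Igtp at chr11:58199306-58199605, both on the plus strand.
Gbp2: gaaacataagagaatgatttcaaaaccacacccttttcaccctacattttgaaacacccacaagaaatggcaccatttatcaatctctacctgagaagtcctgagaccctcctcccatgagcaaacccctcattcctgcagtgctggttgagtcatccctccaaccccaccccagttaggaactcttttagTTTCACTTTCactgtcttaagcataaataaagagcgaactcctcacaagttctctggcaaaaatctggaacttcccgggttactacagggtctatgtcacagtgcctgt
Igtp: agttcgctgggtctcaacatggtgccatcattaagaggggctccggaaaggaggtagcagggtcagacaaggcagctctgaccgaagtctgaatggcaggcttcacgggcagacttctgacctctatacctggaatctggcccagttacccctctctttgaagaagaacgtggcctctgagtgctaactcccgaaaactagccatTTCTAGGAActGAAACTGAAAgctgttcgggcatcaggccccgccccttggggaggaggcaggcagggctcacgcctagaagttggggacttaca
The first motif was found on either strand in 10 of the 12 promoters matched to 11 of the GTPase genes and in 3.44% of all 32851 promoters, and TTCNNNGAA in 6 of the 12 and in 8.3% of all. No 2 matches overlap in the sequences shown. Members higher and lower in YUMM1.1 were not compared for their motifs.

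Gbp2 had 4921, 6315 and 7889.7 CPM in treated YUMM1.1 and 3566, 3563 and 4334 CPM in treated B16 (log2 0.83, SE 0.17, adjusted p = 0.00137). Gbp3 had 1158, 1219 and 1694 CPM in treated YUMM1.1 and 482, 490.4 and 509 CPM in treated B16 (log2 1.55, SE 0.16, adjusted p = 9.91e-06). Gbp9 had 402, 477 and 542 CPM in treated YUMM1.1 and 40.8, 50.1 and 55.6 CPM in treated B16 (log2 3.37, SE 0.17, adjusted p = 5.75e-08) and shares exon bases with Gbp4 and Gbp8. Each of these 3 was above B16 in all YUMM1.1 libraries. In untreated cells they were also higher in YUMM1.1 (log2 1.13, 3.94 and 5.87), and the untreated differences of Gbp3 and Gbp9 were wider (interaction adjusted p = 1.95e-04 and 0.0240). Of the lower members, Igtp had 1639, 1630.2 and 2189 CPM in treated YUMM1.1 and 3226, 3219 and 3333 CPM in treated B16 (log2 -0.75, SE 0.13, adjusted p = 6.50e-04). Irgm1 had 1778, 1857 and 2094 CPM in treated YUMM1.1 and 2821, 2799.99 and 2989.8 CPM in treated B16 (log2 -0.49, SE 0.11). Ifi47 had 442, 391 and 658 CPM in treated YUMM1.1 and 1360.3, 1337 and 1684 CPM in treated B16 (log2 -1.46, SE 0.19). All 3 were below B16 in every YUMM1.1 library. Gbp6, also lower, averaged 12.02 ± 1.11 CPM in treated YUMM1.1 and 179 ± 50.8 CPM in treated B16, and Gbp10 averaged 182 ± 47.7 CPM in treated YUMM1.1 and 505 ± 59.9 CPM in treated B16. Gbp7 was lower in treated YUMM1.1 (log2 -1.10) and higher in untreated YUMM1.1 (log2 3.42, interaction adjusted p = 3.86e-08), with means of 235 CPM in treated YUMM1.1 and 540.3 CPM in treated B16, and of 19.4 CPM in untreated YUMM1.1 and 2.04 CPM in untreated B16. Iigp1 had 1189.97, 1169 and 1633 CPM in treated YUMM1.1 and 1371, 1414 and 2249 CPM in treated B16 and was not called (log2 -0.24, adjusted p = 0.320). Members of this family are close in sequence, and reads may be shared between them.

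Antiviral genes were mostly lower in treated YUMM1.1. Of 34 tested, 25 were called lower and 1 higher (median log2 -1.15), 20 were lower by at least 2-fold, and 7 passed the filter through 1 line alone. Bst2, which tethers virus particles, had 251, 227 and 312 CPM in treated YUMM1.1 and 953, 951 and 666 CPM in treated B16 (log2 -1.61, SE 0.18, adjusted p = 2.16e-05). Its difference was wider in untreated cells (log2 -3.32, interaction adjusted p = 1.64e-04). Zbp1, a sensor of Z-form nucleic acids, had 196, 202 and 273 CPM in treated YUMM1.1 and 772, 756 and 722 CPM in treated B16 (log2 -1.65, SE 0.15, adjusted p = 4.47e-06), and both genes were lower in every YUMM1.1 library than in any B16 library. The oligoadenylate synthetases, which activate the ribonuclease RNase L, had hardly a read in YUMM1.1. Oas1a averaged 0.272 ± 0.0599 CPM in treated YUMM1.1 and 80.4 ± 6.53 CPM in treated B16, and Oas2 averaged 0.118 ± 0.0730 CPM in treated YUMM1.1 and 45.2 ± 2.57 CPM in treated B16. Rsad2, viperin, had 0.881, 1.01 and 6.64 CPM in treated YUMM1.1 and 138, 143 and 178 CPM in treated B16 (log2 -5.64, SE 0.60). YUMM1.1 IFNG 3 was the highest YUMM1.1 library, and without it the log2 was -7.25. Trim25, a ubiquitin ligase that activates the RNA sensor RIG-I, averaged 0.0269 ± 0.0467 CPM in treated YUMM1.1 and 132 ± 6.86 CPM in treated B16 and was lower in untreated YUMM1.1 as well (log2 -11.39). The sensor Dhx58 had 15.02, 15.8 and 31.9 CPM in treated YUMM1.1 and 130.4, 136 and 115 CPM in treated B16 (log2 -2.51, SE 0.27), with untreated means of 1.799 CPM in untreated YUMM1.1 and 3.13 CPM in untreated B16 that were not called (adjusted p = 0.134). The 1 higher gene was Ifit3, which binds viral RNA complexes, with 467, 579 and 779 CPM in treated YUMM1.1 and 377, 376 and 372 CPM in treated B16 (log2 0.79, SE 0.17). Its difference too was wider in untreated cells (log2 2.85, interaction adjusted p = 7.52e-05). Isg15, Ifit1, Ddx58 and Rtp4 were among the 8 not called, though Ifit1 was called higher without YUMM1.1 IFNG 1 (log2 0.85). Rtp4, a chaperone of receptors that restricts viruses, had 97.6, 95.8 and 154 CPM in treated YUMM1.1 and 115, 109 and 138 CPM in treated B16, whereas its untreated means were 0.0671 CPM in untreated YUMM1.1 and 2.51 CPM in untreated B16. In untreated cells, of 25 tested antiviral genes 8 were higher and 13 lower. The interaction was called positive for 5 and negative for 9 of 34 tested members, against 9.95% and 8.51% of all genes.

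Among chemokines, 6 of 10 tested were called higher and none lower. The 6 higher genes all passed the count filter through YUMM1.1 alone, which largely fixed their direction. Ccl2, which draws monocytes, had 124, 112 and 143 CPM in YUMM1.1 and no read in treated B16, at least 742-fold higher. Cxcl12, the ligand of CXCR4, had 12.1, 6.95 and 9.15 CPM in YUMM1.1 and no read in treated B16. Ccl7, a further monocyte chemokine, had 5.33, 3.68 and 5.96 CPM in YUMM1.1 and 1 read in treated B16. With the genes that had no B16 read set at the floor of 3 reads, the median log2 of the list was 3.37 in place of 4.31. The CXCR3 ligands, which draw T cells and are classical IFNG targets, were not called. Cxcl10 had 121, 99.4 and 221 CPM in treated YUMM1.1 and 164, 146 and 147 CPM in treated B16 (log2 0.04, adjusted p = 0.888), with untreated means of 2.43 CPM in untreated YUMM1.1 and 13.8 CPM in untreated B16. YUMM1.1 IFNG 3 held the highest Cxcl10 value and the others lay below B16, and without it the gene was called lower (log2 -0.40, adjusted p = 0.0293). Ccl5 was likewise called lower only without that library (log2 -1.61), so that 2 chemokines were then called lower. Cxcl9 had 7.28, 8.405 and 13.02 CPM in treated YUMM1.1 and 6.51, 4.37 and 8.13 CPM in treated B16 (log2 0.67, adjusted p = 0.0617). It was called higher without B16 IFNG 3 (log2 0.88) and without YUMM1.1 IFNG 1 (log2 0.84). Cxcl11 had too few reads to be tested.

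Cytokines and growth factors were called higher for 10 and lower for 5 of 18 tested genes (median log2 1.60), and 7 of these passed the count filter through 1 line alone. Hbegf, a ligand of the EGF receptor, had 181, 166 and 165 CPM in treated YUMM1.1 and 3.17, 3.78 and 3.01 CPM in treated B16 (log2 5.78, SE 0.16, adjusted p = 1.68e-09). Pdgfa, a ligand of PDGF receptors, had 263, 248 and 309 CPM in treated YUMM1.1 and 8.02, 8.94 and 6.63 CPM in treated B16 (log2 5.22, SE 0.17, adjusted p = 4.31e-09). Csf1, the growth factor of macrophages, had 261, 244 and 239 CPM in treated YUMM1.1 and 83.2, 106 and 79.8 CPM in treated B16 (log2 1.56, SE 0.14). Il34, the other ligand of the same receptor, averaged 42.01 ± 3.26 CPM in treated YUMM1.1 and 0.116 ± 0.104 CPM in treated B16. No YUMM1.1 library overlapped with B16 for these 4 genes. Vegfa averaged 33.1 ± 5.98 CPM in treated YUMM1.1 and 11.4 ± 2.598 CPM in treated B16 (log2 1.64, adjusted p = 5.41e-05), whereas the untreated means were 38.5 CPM in untreated YUMM1.1 and 61.5 CPM in untreated B16, with the difference called in the other direction (log2 -0.49). Tgfb1 was lower, with 0.927, 1.54 and 2.89 CPM in treated YUMM1.1 and 10.7, 13.7 and 7.83 CPM in treated B16 (log2 -2.47, SE 0.39), and so were Il15 and Il18 (log2 -1.48 and -0.94).

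The ligand genes read by immune cells differed by gene. Cd274, which encodes PD-L1, had 34.02, 41.7 and 53.999 CPM in treated YUMM1.1 and 188, 173 and 183 CPM in treated B16 (log2 -1.97, SE 0.17, adjusted p = 3.53e-06), and it was the only 1 of 9 tested checkpoint genes called lower. Its untreated levels were 0.760, 0.731 and 0.720 CPM in untreated YUMM1.1 and 6.47, 7.57 and 6.61 CPM in untreated B16, lower in YUMM1.1 at log2 -3.01, a wider difference than in treated cells (interaction adjusted p = 0.0206). Cd276, B7-H3, had 31.8, 35.4 and 60.4 CPM in treated YUMM1.1 and 20.04, 24.2 and 22.1 CPM in treated B16 (log2 1.04, adjusted p = 0.00322). Tnfrsf14, the receptor HVEM, had 29.5, 51.9 and 46.2 CPM in treated YUMM1.1 and 20.04, 23.7 and 18.2 CPM in treated B16 (log2 1.14, adjusted p = 0.00102). Cd47, the signal against phagocytosis, averaged 109 ± 13.1 CPM in treated YUMM1.1 and 93.5 ± 22.9 CPM in treated B16 and was not called (adjusted p = 0.131), but it was called higher without B16 IFNG 3 (log2 0.52). Lgals9 had 112, 109 and 140 CPM in treated YUMM1.1 and 161, 158 and 142 CPM in treated B16, without overlap. It was not called (log2 -0.26, adjusted p = 0.122). With library totals, without B16 IFNG 3 and without YUMM1.1 IFNG 3 it was called lower. Nt5e, CD73, had 2.97, 3.68 and 6.51 CPM in YUMM1.1 and no read in B16. Ido1 had 1 read in the 6 libraries. Of the NKG2D ligands, H60b was higher and Ulbp1 and Raet1d were lower, with levels below 15 CPM in every library, and H60b no longer passed the count filter, and so was not tested, without YUMM1.1 IFNG 2 or 3. Of 5 tested complement genes, C2, C1ra and C1s1 were lower, C2 with 0.417, 0.242 and 0.340 CPM in treated YUMM1.1 and 141, 143 and 142 CPM in treated B16 (log2 -8.62, SE 0.19), and the membrane inhibitor Cd59a was higher, with 33.4, 40.8 and 49.4 CPM in treated YUMM1.1 and 10.9, 9.34 and 11.9 CPM in treated B16 (log2 2.03, SE 0.19). C2 and C1s1 passed the filter through B16 alone. Of 8 genes of the Serpina3 cluster of protease inhibitors 4 were tested, and these were called higher. However, 3 of them passed the count filter through YUMM1.1 alone, which largely fixed that direction. Serpina3n had 122, 212 and 232 CPM in treated YUMM1.1 and 0.334, 0 and 0.151 CPM in treated B16, a ratio of 1126 with a 95% counting interval of 385 to 5459. Serpina3g had 14.2, 16.2 and 90.8 CPM in YUMM1.1, again highest in YUMM1.1 IFNG 3, and 1 read in B16. The cluster members are near copies and may share reads.

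Cell death genes were called higher for 11 and lower for 4 of 19 tested (median log2 0.81). Bcl2l1, the survival protein BCL-XL, had 377, 384 and 461 CPM in treated YUMM1.1 and 86.7, 86.7 and 77.1 CPM in treated B16 (log2 2.38, SE 0.13, adjusted p = 1.50e-07), and the pore formers Bax and Bak1 were higher by log2 1.43 and 1.26. Casp1, the inflammasome caspase, averaged 102 ± 3.18 CPM in treated YUMM1.1 and 0.629 ± 0.632 CPM in treated B16 (log2 7.31, SE 0.30, or 8.58 without B16 IFNG 3), and Casp4 averaged 40.0 ± 9.53 CPM in treated YUMM1.1 and 4.196 ± 0.560 CPM in treated B16 (log2 3.33, SE 0.24). The substrate of both, Gsdmd, which forms pores in pyroptosis, was lower, with 1.31 ± 0.382 CPM in treated YUMM1.1 and 41.3 ± 5.32 CPM in treated B16 (log2 -4.87, SE 0.22). Casp8, the caspase of death receptors, had 34.8, 31.4 and 32.2 CPM in treated YUMM1.1 and 98.7, 93.8 and 100.5 CPM in treated B16 (log2 -1.48, SE 0.11, adjusted p = 1.36e-06). The necroptosis effector Mlkl had 205, 202 and 232 CPM in treated YUMM1.1 and 299.98, 302 and 334 CPM in treated B16 (log2 -0.46, adjusted p = 0.00487). The death receptor gene Fas averaged 4.01 ± 0.671 CPM in treated YUMM1.1 and 0.328 ± 0.127 CPM in treated B16 (log2 3.63, SE 0.40).

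Outputs of the MAPK pathway were higher in treated YUMM1.1 for 14 of 16 genes and lower for 1 (median log2 2.36). Ccnd1, cyclin D1, had 2902, 3072 and 3008 CPM in treated YUMM1.1 and 151, 152 and 158 CPM in treated B16 (log2 4.38, SE 0.12, adjusted p = 1.29e-09), and its untreated means were 3287 CPM in untreated YUMM1.1 and 173 CPM in untreated B16. Dusp6, the phosphatase of ERK, had 309, 281 and 307 CPM in treated YUMM1.1 and 152, 150.3 and 184 CPM in treated B16 (log2 0.98, SE 0.12), and Etv4, Etv5 and Spry4 were higher by log2 4.07, 3.27 and 3.37. Dusp4, another phosphatase of ERK, was lower, with 69.2, 60.3 and 66.98 CPM in treated YUMM1.1 and 175, 174 and 138 CPM in treated B16 (log2 -1.21, SE 0.14), and Myc was not called in treated cells (log2 -0.10, adjusted p = 0.697) while it was lower in untreated YUMM1.1 (log2 -2.06). Of 18 tested tumour suppressor, RAS and p53 genes 12 were higher and 2 lower. The p53 target Ccng1 had 381, 347 and 476 CPM in treated YUMM1.1 and 135, 135 and 208 CPM in treated B16 (log2 1.43, SE 0.19). Phlda3, another p53 target, had 340.03, 344 and 400.1 CPM in treated YUMM1.1 and 189.6, 185 and 142 CPM in treated B16 (log2 1.16, SE 0.15). Cdkn1a, p21, averaged 275 ± 28.8 CPM in treated YUMM1.1 and 39.8 ± 4.302 CPM in treated B16 (log2 2.88, SE 0.14), and 300.03 CPM in untreated YUMM1.1 and 248 CPM in untreated B16 (untreated log2 0.47, interaction adjusted p = 1.89e-07). Cdkn1b, p27, was lower, with 48.3, 53.9 and 60.8 CPM in treated YUMM1.1 and 105, 104 and 191 CPM in treated B16 (log2 -1.20, adjusted p = 8.13e-04).

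Cell cycle genes showed no common direction: of 29 tested, 5 were higher, 11 lower and 13 not called (median log2 -0.21). The replication licensing genes Mcm2, Mcm3, Mcm5 and Mcm6 were lower, Mcm2 with 136, 119.8 and 97.7 CPM in treated YUMM1.1 and 475, 479.8 and 366 CPM in treated B16 (log2 -1.81, SE 0.16, adjusted p = 4.51e-06). Cdk1 was higher, with 273, 211 and 209 CPM in treated YUMM1.1 and 133, 131 and 139.9 CPM in treated B16 (log2 0.87, SE 0.13), and so was E2f1 (log2 1.04). Mki67, a marker of cycling cells, averaged 159 ± 52.9 CPM in treated YUMM1.1 and 176 ± 29.7 CPM in treated B16 and was not called (adjusted p = 0.844), nor was Top2a (log2 0.13, adjusted p = 0.447). Cdk2 had 72.03, 59.1 and 51.4 CPM in treated YUMM1.1 and 655, 636 and 663 CPM in treated B16 (log2 -3.33, SE 0.15), but it shares exon bases with Pmel, the pigment gene, so the reads of Cdk2 in B16 may be those of Pmel.

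ATF4 targets and cholesterol genes gave line differences that were unlike those of untreated cells. The ATF4 list holds Atf4 itself and genes made under nutrient stress, among them amino acid enzymes, transporters and regulators such as Trib3 and Ddit3. Of its 15 genes, 8 were higher and 2 lower in treated YUMM1.1 (median log2 0.48). In untreated cells 2 were higher and 13 lower (none and 13 with library totals), with a median of -1.43, and the interaction was called positive for 14 of the 15, against 9.95% of all genes tested for it. Trib3, a target that feeds back on ATF4, had 28.4, 31.8 and 21.9 CPM in treated YUMM1.1 and 19.7, 25.04 and 16.1 CPM in treated B16, against 12.3, 11.5 and 16.4 CPM in untreated YUMM1.1 and 458, 432 and 406 CPM in untreated B16. Its difference was log2 0.53 in treated cells, with an adjusted p of 0.0377 that ranged over 0.00178 to 0.143 in the alternatives and missed the threshold without B16 IFNG 1 or 3 and without YUMM1.1 IFNG 1 or 2, and log2 -4.82 in untreated cells (interaction adjusted p = 2.24e-09). Atf4 itself had 323, 331 and 279 CPM in treated YUMM1.1 and 278, 299 and 256 CPM in treated B16 (log2 0.26, adjusted p = 0.0853, called higher without YUMM1.1 IFNG 3 at log2 0.31), and 295, 277 and 364 CPM in untreated YUMM1.1 and 987, 967 and 938 CPM in untreated B16 (log2 -1.43). Asns, asparagine synthetase, averaged 188 CPM in treated YUMM1.1 and 143 CPM in treated B16, and 182 CPM in untreated YUMM1.1 and 733 CPM in untreated B16. Its treated call (log2 0.48, adjusted p = 0.0321) was lost with library totals and without B16 IFNG 1 or 2 or YUMM1.1 IFNG 1 or 2. For these 3 genes the YUMM1.1 levels were far less apart between treated and untreated cells than the B16 levels, which were lower in treated B16. Psat1, an enzyme of serine synthesis, had 472, 466 and 425 CPM in treated YUMM1.1 and 129, 134 and 154 CPM in treated B16 (log2 1.80, SE 0.12). Phgdh, the first enzyme of that route, had 176, 152 and 133 CPM in treated YUMM1.1 and 76.999, 79.3 and 53.02 CPM in treated B16 (log2 1.23, SE 0.18). Atf5, a factor related to ATF4, averaged 171 ± 23.1 CPM in treated YUMM1.1 and 20.05 ± 5.24 CPM in treated B16 (log2 3.19, SE 0.21), and its untreated difference was log2 -0.73.

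The 21 cholesterol genes were split in treated cells, with 7 higher and 6 lower (median log2 0.05). In untreated cells 18 were higher in YUMM1.1 and 1 lower (median log2 1.12), and the interaction was called negative for 17, against 8.51% of all genes. Hsd17b7, an enzyme of the later steps of the pathway, had 76.7, 77.4 and 63.6 CPM in treated YUMM1.1 and 144, 133 and 202 CPM in treated B16 (log2 -1.05, SE 0.17, adjusted p = 2.70e-04), and 74.9, 53.8 and 66.3 CPM in untreated YUMM1.1 and 13.3, 10.4 and 12.04 CPM in untreated B16 (log2 2.63). Hmgcs1, which makes the precursor HMG-CoA, had 212, 234 and 272 CPM in treated YUMM1.1 and 205, 211 and 323 CPM in treated B16 and was not called (log2 0.05, adjusted p = 0.811), while its untreated values were 221, 179 and 228 CPM in YUMM1.1 and 50.8, 58.8 and 60.6 CPM in B16. Sqle, squalene epoxidase, had 206, 226 and 208 CPM in treated YUMM1.1 and 356, 346 and 431 CPM in treated B16 (log2 -0.73, adjusted p = 3.70e-04). Srebf2, the factor that drives the pathway, was called in neither comparison (log2 0.05 treated and -0.05 untreated).

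**Figure D4:**
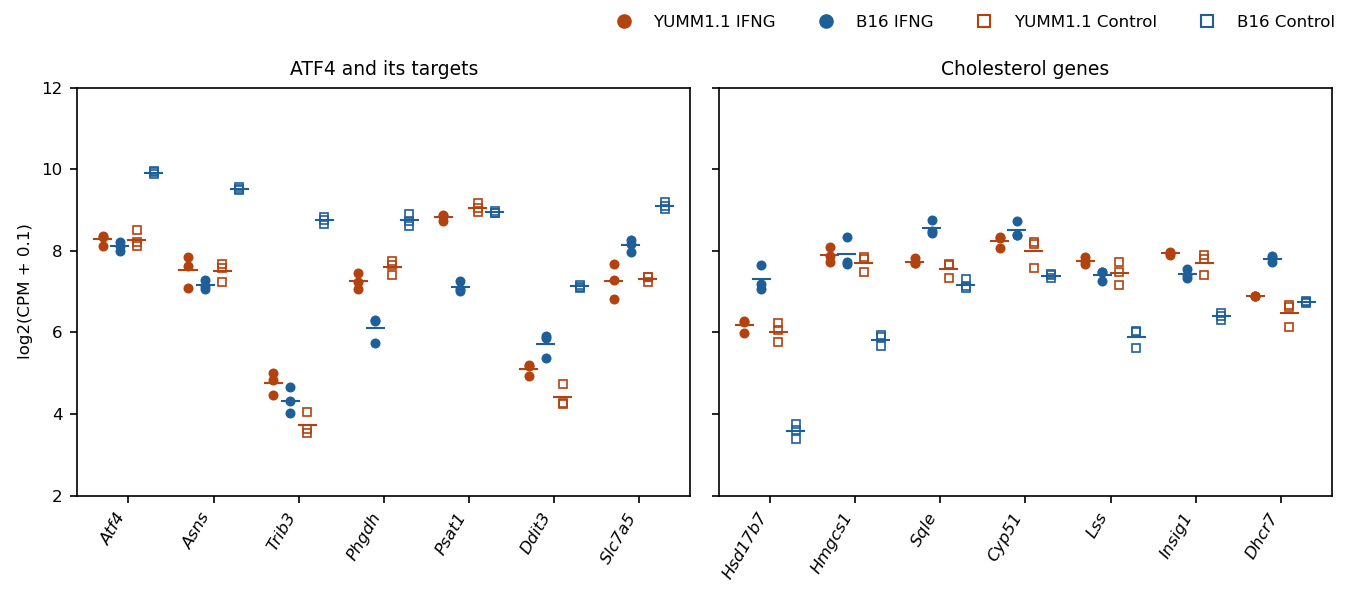
Each point is 1 library on a log2 scale of CPM plus 0.1, filled for IFNG-treated and open for untreated cells, with YUMM1.1 left of B16 in each pair and short lines for the means of the log values. On average the untreated B16 points are the highest for Atf4, Asns, Trib3 and Phgdh and the lowest for every cholesterol gene shown but Dhcr7.

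The most extreme genes of the whole comparison were chosen by rank among called genes of at least 5 CPM without overlap. Of the 15 lowest in YUMM1.1, 6 were pigmentation genes. Ptgds, prostaglandin D synthase, had 0, 0.0808 and 0 CPM in treated YUMM1.1 and 3838, 3822 and 3071 CPM in treated B16. Its ratio of B16 over YUMM1.1 from the summed counts was 123753, with a 95% counting interval of 34257 to 1021894. Slc38a1, a glutamine transporter, had no read in YUMM1.1 and 672, 668 and 714 CPM in B16, at least 15984-fold lower in YUMM1.1. Gjb2, a connexin gene, had none in YUMM1.1 and 376, 356 and 399 CPM in B16. None of these 3 had more than 2 reads over the treated YUMM1.1 libraries. Kcnj13, a potassium channel, had none in YUMM1.1 and 211, 224 and 234 CPM in treated B16, with 3.04, 4.18 and 2.72 CPM in untreated B16, but it shares exon bases with Gigyf2. Among the 15 highest, Ecel1, an endopeptidase of neurons, had 4695, 5524 and 6190.4 CPM in treated YUMM1.1 and 0.668, 0 and 0 CPM in treated B16. Dner, a Notch ligand of neurons, had 167, 215 and 136 CPM in YUMM1.1 and no read in treated B16, at least 1022-fold higher. Gfra2, a receptor for neurturin, had 119, 153 and 183 CPM in YUMM1.1 and none in treated B16. None of these 3 had more than 4 reads over the treated B16 libraries. Sfrp1, a secreted inhibitor of WNT, had 69.2, 63.6 and 65.4 CPM in YUMM1.1 and none in treated B16. Pak1, a kinase downstream of RAC, had 109, 90.8 and 89.2 CPM in YUMM1.1 and no read in treated B16, with 0.127, 0.797 and 0.389 CPM in untreated B16. The kallikrein genes Klk9 and Klk10, which lie close together on chromosome 7, were on the same list. In all, 74 tested genes had at least 10 CPM in treated YUMM1.1 with no read in treated B16, and 42 the reverse.

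The treated difference was then set beside the difference between the untreated lines, which rests on other libraries. Of 12850 genes tested in untreated cells, 4654 were called higher and 4557 lower in YUMM1.1. Scaling by library totals alone moved the untreated differences of all genes by a median of -0.20 on the log2 scale and gave 3800 higher and 5515 lower. The interaction was called positive for 1353 and negative for 1157 of 13603 genes, and for 1727 and 886 with library totals. Of 12420 genes tested in both, 3554 were higher in both, which is 81.0% of the genes higher in treated and 77.6% of those higher in untreated YUMM1.1. A further 3223 were lower in both, 81.2% and 74.9%. Not called in untreated cells were 712 of the genes higher and 649 of those lower in treated YUMM1.1, and for 267 and 219 of these the change of the difference was itself called. Opposite calls were found for 120 and 98 genes, with the interaction called for each.

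**Figure D5:**
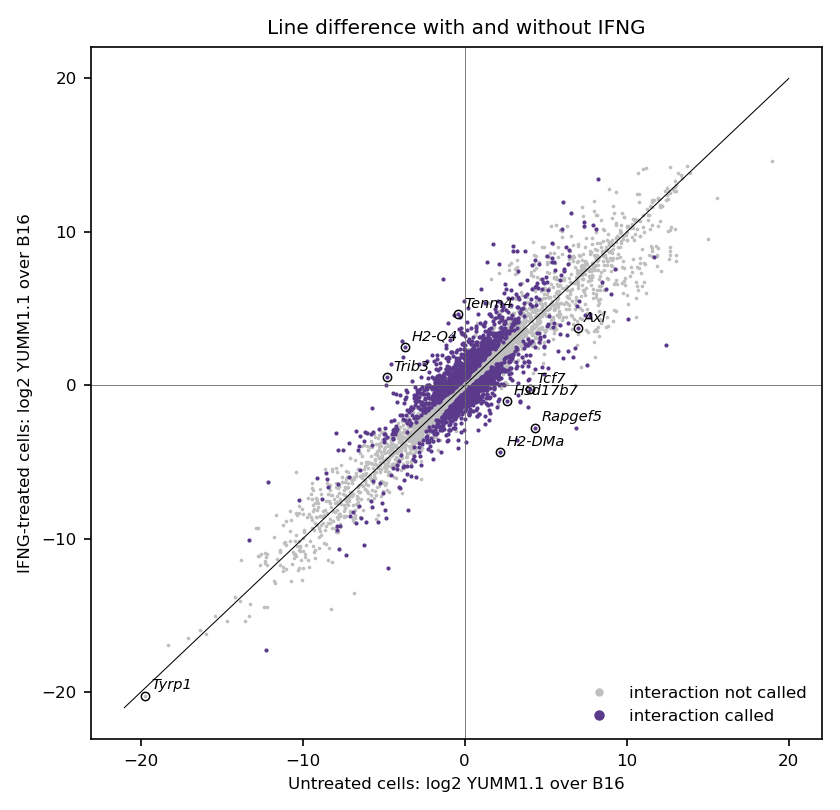
Each point is 1 gene tested in both comparisons, with its log2 ratio of YUMM1.1 over B16 in untreated cells across and in IFNG-treated cells up. The line marks equal differences, and purple points are genes with a called interaction. Circled genes are named in the text: Trib3 and H2-Q4 lie upper left, and Hsd17b7, H2-DMa and Rapgef5 lower right.

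Some genes were called in treated cells, not called in untreated cells, and called for the change between them. Among those lower in YUMM1.1, Tbc1d2, a RAB GTPase-activating protein, had 1.58, 0.929 and 1.83 CPM in treated YUMM1.1 and 29.7, 28.4 and 18.8 CPM in treated B16, against 1.07, 1.62 and 1.54 CPM in untreated YUMM1.1 and 1.52, 2.59 and 2.72 CPM in untreated B16. Dock8, an exchange factor for CDC42 in immune cells, had 5.56, 1.45 and 0.596 CPM in treated YUMM1.1 and 34.1, 28.8 and 32.1 CPM in treated B16 (log2 -3.57, adjusted p = 2.19e-04, or log2 -4.83 without YUMM1.1 IFNG 1). Sp140, a chromatin reader of the IFNG-inducible SP100 family, had 1.44, 1.37 and 0.638 CPM in treated YUMM1.1 and 8.35, 8.15 and 11.4 CPM in treated B16. Their untreated differences were not called, with log2 -0.41, -0.41 and -0.01. Iqch, Myzap, Tmem151a and Inca1 were of the same kind and below 15 CPM in every treated library. All of these were below B16 in every YUMM1.1 library. Among those higher in YUMM1.1, Cdc42ep1, an effector of CDC42, had 99.9, 85.3 and 89.4 CPM in treated YUMM1.1 and 9.35, 11.9 and 7.53 CPM in treated B16, against 124, 107 and 139.7 CPM in untreated YUMM1.1 and 159.98, 173 and 144 CPM in untreated B16. Gjc3, a connexin of glia, had 116, 181 and 190.2 CPM in treated YUMM1.1 and 15.7, 11.3 and 15.2 CPM in treated B16, against 95.96, 54.4 and 102 CPM in untreated YUMM1.1 and 77.6, 87.04 and 98.3 CPM in untreated B16. The kinase gene Hunk had 20.9, 24.04 and 22.3 CPM in treated YUMM1.1 and 2.17, 3.98 and 2.71 CPM in treated B16, against 32.9, 29.5 and 29.3 CPM in untreated YUMM1.1 and 29.9, 25.5 and 34.2 CPM in untreated B16. For Cdc42ep1 and Hunk the B16 level was lower in treated than in untreated cells, and the YUMM1.1 values differed less between treated and untreated cells. Tenm4, Chadl, Creb5, Nwd1 and Gprin1 were also on this list, with treated log2 values of 2.80 to 4.62. Cdc42ep1 and Chadl share exon bases with other coding genes.

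Opposite differences beyond those named above were found for Ifi204, a DNA sensor of the p200 family, Rapgef5, an exchange factor for RAP1, and Slco2a1, a prostaglandin transporter. Ifi204 had 3.89, 3.48 and 7.45 CPM in treated YUMM1.1 and 31.1, 34.98 and 40.97 CPM in treated B16 (log2 -2.76, SE 0.28), but 1.16, 1.41 and 0.771 CPM in untreated YUMM1.1 and no read in untreated B16. Rapgef5 had 4.26, 3.92 and 9.11 CPM in treated YUMM1.1 and 40.3, 36.6 and 48.2 CPM in treated B16, against 6.71, 5.28 and 5.86 CPM in untreated YUMM1.1 and 0.380, 0.199 and 0.389 CPM in untreated B16 (log2 -2.76 treated and 4.36 untreated). Slco2a1 had 1.99, 2.06 and 1.23 CPM in treated YUMM1.1 and 24.1, 24.6 and 19.1 CPM in treated B16, against 2.46, 1.88 and 2.42 CPM in untreated YUMM1.1 and 0.127, 0.398 and 0.389 CPM in untreated B16. Conversely, some genes had a narrow difference in treated cells and a wide one in untreated cells. Of 4608 genes with an untreated difference of at least 2-fold, 64 had a treated 95% interval within 0.58 of 0 on the log2 scale and a called interaction. Tcf7, a factor of the WNT pathway, had 38.6, 30.1 and 28.3 CPM in treated YUMM1.1 and 42.4, 40.7 and 37.5 CPM in treated B16 (95% interval -0.56 to 0.11), against 44.05, 57.6 and 42.8 CPM in untreated YUMM1.1 and 3.55, 3.59 and 2.72 CPM in untreated B16 (log2 4.01). Prex2, an exchange factor for RAC, had 14.2, 15.7 and 10.6 CPM in treated YUMM1.1 and 13.5, 15.3 and 17.8 CPM in treated B16, against 14.3, 7.78 and 13.2 CPM in untreated YUMM1.1 and 73.8, 89.03 and 85.5 CPM in untreated B16. Mex3a, an RNA-binding protein, and Atp8a1, a lipid flippase, were of the same kind, with untreated log2 values of -2.19 and 2.35 and treated values of 0.06 and 0.11.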

How the data were processed

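Bulk RNA-seq of total RNA from YUMM1.1 and B16 mouse melanoma cells was analysed from whole-number read counts per gene, deposited by the authors as tables of 55416 gene IDs. The genome build was GRCm38, per the submitters' processing notes, and the aligner, the counter and any strand setting were not given in the sources used here. Gene symbols (52083 IDs matched) and exon overlaps came from GENCODE M21 and promoter sequences from RefSeq. The authors' own tables of treated against untreated cells were not used. Groups and library numbers came from the labels.

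The counts were tested with edgeR 4.0.16 in R 4.3.3: genes were kept by filterByExpr (about 0.709 CPM in 3 libraries), scaled by TMM, and fitted with robust quasi-likelihood dispersions, with Benjamini-Hochberg adjustment over all tested genes. SE is the absolute log2 value divided by the root of the F statistic. CPM were computed from library totals without TMM factors. Marker sums were set side by side without a test, since 3 libraries against 3 cannot go below an exact permutation p of 0.1. Alternatives were RLE factors, library totals, 2 other filters, DESeq2 1.42.0, limma-voom 3.58.1, a stricter threshold of 0.01, a single fit of all 12 libraries, YUMM1.1 thinned to the B16 depth, B16 IFNG 1 and 2 summed, a replicate block, and leaving out each library. In simulated counts with the treated design, 94.0% of genes raised and 87.5% of genes lowered by log2 1 were called, among 12639 tested, and 0.06% of unchanged genes. The simulated counts had far fewer changed genes than the data, a common spread for all genes and the same base levels in both lines. They therefore do not test the scaling or the error rates under differences as broad as these. Floors of 3 reads over a group and 95% counting intervals cover counting error only.

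The comparison and all 33 gene lists were chosen with earlier results of these data known. Genes were named by rule: the 15 most positive and 15 most negative log2 values among called genes of at least 5 CPM without overlap; in each list up to 3 higher and 3 lower members and 1 uncalled member with the highest CPM; a fixed set of IFNG and melanoma genes; and the genes with the widest change of the line difference. Foxd3 and Tfap2b came from the first of these. Further list members, such as Casp1, Gsdmd, Kit, Vegfa, Il34, Gbp7, Atf5, the Oas genes and the Snai2, Twist1 and Zeb factors, were named after their values were seen. Some genes are not reported here.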

Additional observations from a re-analysis of the deposited data

Results flagged for a closer look

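Flagged here are 39 named genes whose line difference was not the same in treated and untreated cells. The test was that of the change itself, the interaction term of edgeR over all 12 libraries. Each value below is that change in log2, the treated minus the untreated difference of YUMM1.1 over B16, and the adjusted p-values were 2.24e-09 to 0.0117. The genes were chosen partly for this change, so the count describes the choice. Other named genes, Axl, Nes, Socs1 and Irf1 among them, also had a called interaction and are not counted here. In 17 genes the lines were called in opposite directions, with changes of -9.66 for Ifi204, -7.10 for Rapgef5, -6.82 for Slco2a1, -6.56 for H2-DMa, -4.51 for Gbp7, -3.67 for Hsd17b7, -1.74 for Stat3, -1.67 for Socs3, -1.32 for Sqle, -0.66 for Ripk1, 0.75 for Pfkm, 2.15 for Vegfa, 2.18 for Phgdh, 2.31 for Asns, 3.94 for Atf5, 5.36 for Trib3 and 6.19 for H2-Q4. The treated call behind this count was lost for Asns (adjusted p up to 0.145) and Trib3 (up to 0.143) as given with their values, for Ripk1 (up to 0.181) with no count filter and without B16 IFNG 1, YUMM1.1 IFNG 1 or YUMM1.1 IFNG 3, and for Pfkm (up to 0.0723) without YUMM1.1 IFNG 3. Ifi204 had no read in untreated B16, so its fitted change depends on the prior count and is no bound. In 16 further genes the treated difference was called and the untreated one was not. They are the 8 widest treated differences in each direction among such protein-coding genes of at least 5 CPM. Irf1, Igtp and Mlkl were of the same kind but less wide. The changes of the 16 were -3.80 for Iqch, -3.71 for Tmem151a, -3.64 for Tbc1d2, -3.15 for Dock8, -2.90 for Sp140, -2.81 for Myzap, -2.14 for Inca1, -1.88 for Dhx58, 2.53 for Gprin1, 2.80 for Hunk, 3.47 for Gjc3, 3.54 for Cdc42ep1, 3.61 for Nwd1, 3.96 for Chadl, 3.98 for Creb5 and 5.02 for Tenm4. In 6 genes the untreated difference was at least 2-fold and the treated interval was narrow around 0, with changes of -4.22 for Tcf7, -2.23 for Atp8a1, -2.03 for Hmgcs1, 2.26 for Mex3a, 2.51 for Prex2 and 4.93 for Rtp4. The library depths went with the line in treated and untreated cells alike, and their part in these changes was not tested.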

How the results depend on the processing

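Over the alternatives other than leaving out a library, the genes called higher in treated YUMM1.1 numbered 3683 to 5545 and those called lower 3513 to 4639, and each count stayed within 1.5 times of its value in the report. Leaving out 1 library gave 3822 to 4955 higher and 3649 to 4453 lower, 2450 to 3021 and 2186 to 2470 with at least 2-fold. For the untreated lines it gave 4333 to 4638 and 4003 to 4620, and for the interaction 954 to 1402 and 807 to 1214. At an adjusted p below 0.01 the interaction was called positive for 752 and negative for 603 genes. Of 287 named genes tested, 34 changed their call in at least 1 alternative, and Cxcl10 alone was called in the direction opposite to its value in the report (log2 -0.40 to 0.27 with each library left out in turn, the lowest without YUMM1.1 IFNG 3). Of 66 list counts, 18 moved by more than 1.5 times in some alternative, mostly counts of 0 to 2. The larger ones were found with no count filter: 8 MHC class I genes higher in place of 5, 7 checkpoint genes in place of 4, 7 Serpina3 genes in place of 4 and 19 Hox genes lower in place of 9. Collagens called lower were 3 in place of 1 without B16 IFNG 1. Same-numbered treated libraries of the lines had deviations that correlated at 0.0960, 0.0736 and 0.163 over 9302 genes. B16 IFNG 2 correlated better with YUMM1.1 IFNG 1 (0.0921) than with its own number. Libraries numbered 3 correlated at -0.128 to -0.0953 with those numbered 1 and 2 of the other line. These values do not settle whether the numbers pair libraries. The main test did not pair them, and a replicate block was an alternative. With the replicate block, 4529 genes were called higher and 4232 lower in treated cells, 4437 and 4385 in untreated cells, and the interaction was positive for 1256 and negative for 1050. Genes with few reads are bounded less tightly in B16, whose libraries are shallower.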

Other observations

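Position genes of the Hox clusters, which keep a record of where in the body a cell arose, were tested for only 10 of 37 members. Each of these passed the count filter through 1 line alone, which largely fixed its direction. In treated YUMM1.1, 9 of the 10 were lower and 1 higher, with a median log2 of -7.32 (-5.69 with members without a read set at their floor of 3 reads). Their summed level was 2.99 CPM in treated YUMM1.1 and 46.4 CPM in treated B16. Hoxa10 had no read in treated YUMM1.1 and 13.4, 13.3 and 21.2 CPM in treated B16. Hoxd13 had no read in treated YUMM1.1 and 3.84, 3.98 and 5.42 CPM in treated B16. Hoxc13 was the 1 higher gene, with 2.18, 1.62 and 1.79 CPM in treated YUMM1.1 and no read in treated B16.

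Of 18 glycolysis genes, 3 were called higher and 12 lower in treated YUMM1.1 (median log2 -0.79). Pkm, which makes pyruvate, had 2408, 2151 and 2388 CPM in treated YUMM1.1 and 4422, 4499.6 and 3386 CPM in treated B16 (log2 -0.73, SE 0.13). Gapdh had 1148, 1015 and 1113 CPM in treated YUMM1.1 and 2988, 2951 and 2122 CPM in treated B16 (log2 -1.21, SE 0.15), and Ldha, which makes lactate, had 1086, 844 and 1038 CPM in treated YUMM1.1 and 1474, 1517 and 1368 CPM in treated B16 (log2 -0.46, SE 0.12). All 3 were below B16 in every YUMM1.1 library. The first enzyme of the route was split by isoform: Hk1 had 1246, 1177 and 1143 CPM in treated YUMM1.1 and 118, 111 and 89.6 CPM in treated B16 (log2 3.58, SE 0.14), whereas Hk2 averaged 29.1 ± 5.32 CPM in treated YUMM1.1 and 163 ± 12.9 CPM in treated B16 (log2 -2.40, SE 0.16). Of 12 housekeeping genes, 4 were called higher and 3 lower (median log2 -0.001), among them Actb (log2 1.68, SE 0.10). Among the leukocyte markers, Lyz2 was called higher at an adjusted p of 0.0477 (0.00774 to 0.132 over the alternatives) and Cd68 lower at 0.0151 (0.00615 to 0.0899). No leukocyte marker was called higher without B16 IFNG 1 or 2, or without any 1 of the YUMM1.1 libraries. Nor was any with library totals, the CPM filter, DESeq2, limma-voom, thinned YUMM1.1 counts or the threshold of 0.01. Cd68 lost its call without B16 IFNG 1 or YUMM1.1 IFNG 2 and at that threshold.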
